A study of Homo sapiens with 27 samples.

Results

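The 41 genes described here are genes of the hypoxia response and of glycolysis, taken by symbol from the 23228 gene symbols of the deposited expression table. All 41 symbols were found in the table. They fall into 5 roles: 4 regulators of HIF and oxygen sensing, 4 transporters of glucose and lactate, 18 glycolytic enzymes, 5 regulatory kinases of glycolysis and pyruvate use, and 10 other targets of HIF. Their levels were measured by RNA sequencing of total RNA in 27 libraries from 3 human lines of chemotherapy-resistant, castration-resistant prostate cancer, labelled ARCaPM-DR, 22Rv1-DR and DU145-DR. In each line GATA2, a transcription factor gene, was targeted with 1 of 2 hairpins (shGATA2a or shGATA2b) or the cells received a random hairpin as control, with 3 replicates in each of the 9 groups. All groups thus express a hairpin. The vector, its promoter, the time after transduction and the oxygen level of the cultures are not stated in the labels. Nor do the labels say that replicates were separate cultures, so the p-values cover only the variation among these libraries, and that variation may be technical.

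Hypoxia-inducible factors (HIFs) are transcription factors made of an oxygen-labile alpha subunit and a stable partner, and the prolyl hydroxylases of the EGLN family mark the alpha subunit for degradation when oxygen is present. HIF targets include nearly every step by which a cell takes up glucose, splits it to pyruvate and exports it as lactate, besides genes of angiogenesis, pH control, collagen hydroxylation and mitophagy. Cancer cells often run glycolysis at a high rate in oxygen too, and advanced prostate cancers tend to rely on it more than early ones do.

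Recovered reads per library ranged from 3.44 M to 19.40 M, with a median of 12.87 M, and the shallowest library was ARCaPM-DR shGATA2a replicate 3. GATA2 averaged 3.62-fold lower with knockdown than with the control hairpin in DU145-DR, 3.26-fold lower in 22Rv1-DR and 5.90-fold lower in ARCaPM-DR, although some of its values are not whole reads, which limits the check. KRT8, a keratin of simple epithelia, averaged 5834 ± 1480 normalised reads in ARCaPM-DR controls, 22726 ± 3751 in 22Rv1-DR controls and 4950 ± 1424 in DU145-DR controls (SD, n = 3 each). Summed markers of blood cells reached at most 18.0 normalised reads in any library. In 22Rv1-DR, control replicate 3 stood apart. Its chi-square per degree of freedom against the other controls was 94.1 and 98.0, while the other control pair of that line gave 21.7. Also in 22Rv1-DR, shGATA2a replicate 3 and shGATA2b replicate 3 differed by only 1.65 per degree of freedom, when the other same-numbered hairpin pairs of the 3 lines gave 5.19 to 19.8. The limma fits behind the member calls below were also computed without each of these libraries. The ratios within libraries, the tallies by replicate number and the counts of further gene lists used all libraries. So did the fits by edgeR and DESeq2 and those with the replicate number as a block.

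In ARCaPM-DR, knockdown of GATA2 lowered 12 of the 39 members tested and raised 3. These are 30.8% and 7.69% of the members, beside 8.62% of all 13079 genes tested that fell and 9.86% that rose. The median log2 difference was -0.35 over the members and close to 0 over all genes. Among the 17 glycolytic enzymes tested, 7 fell and 1 rose, with a median of -0.52. Among the 9 other HIF targets tested, 1 fell and 0 rose, with a median of -0.11, and 3 of them had an unadjusted p under 0.05. A difference between these 2 lists was not tested. The enzymes together took 0.751% to 0.997% of all reads in the 6 knockdown libraries and 1.08% to 1.28% in the 3 control libraries, ranges that do not overlap. CA9 and ALDOC were not tested there because of low values. With the replicate number as a block, 22 members fell and 7 rose, 56.41% and 17.95%. HK1, GAPDH, PGK1, ENO1, TPI1 and ANKRD37 were then among those that fell, and HIF1A, EGLN1, EGLN3 and PFKFB3 among those that rose. Counts over all genes were also larger with the block and are given in the closing section. Same-numbered replicates had a median correlation of 0.583 but a lowest of 0.0559, so the ARCaPM-DR results below are without the block.

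**Figure D1:**
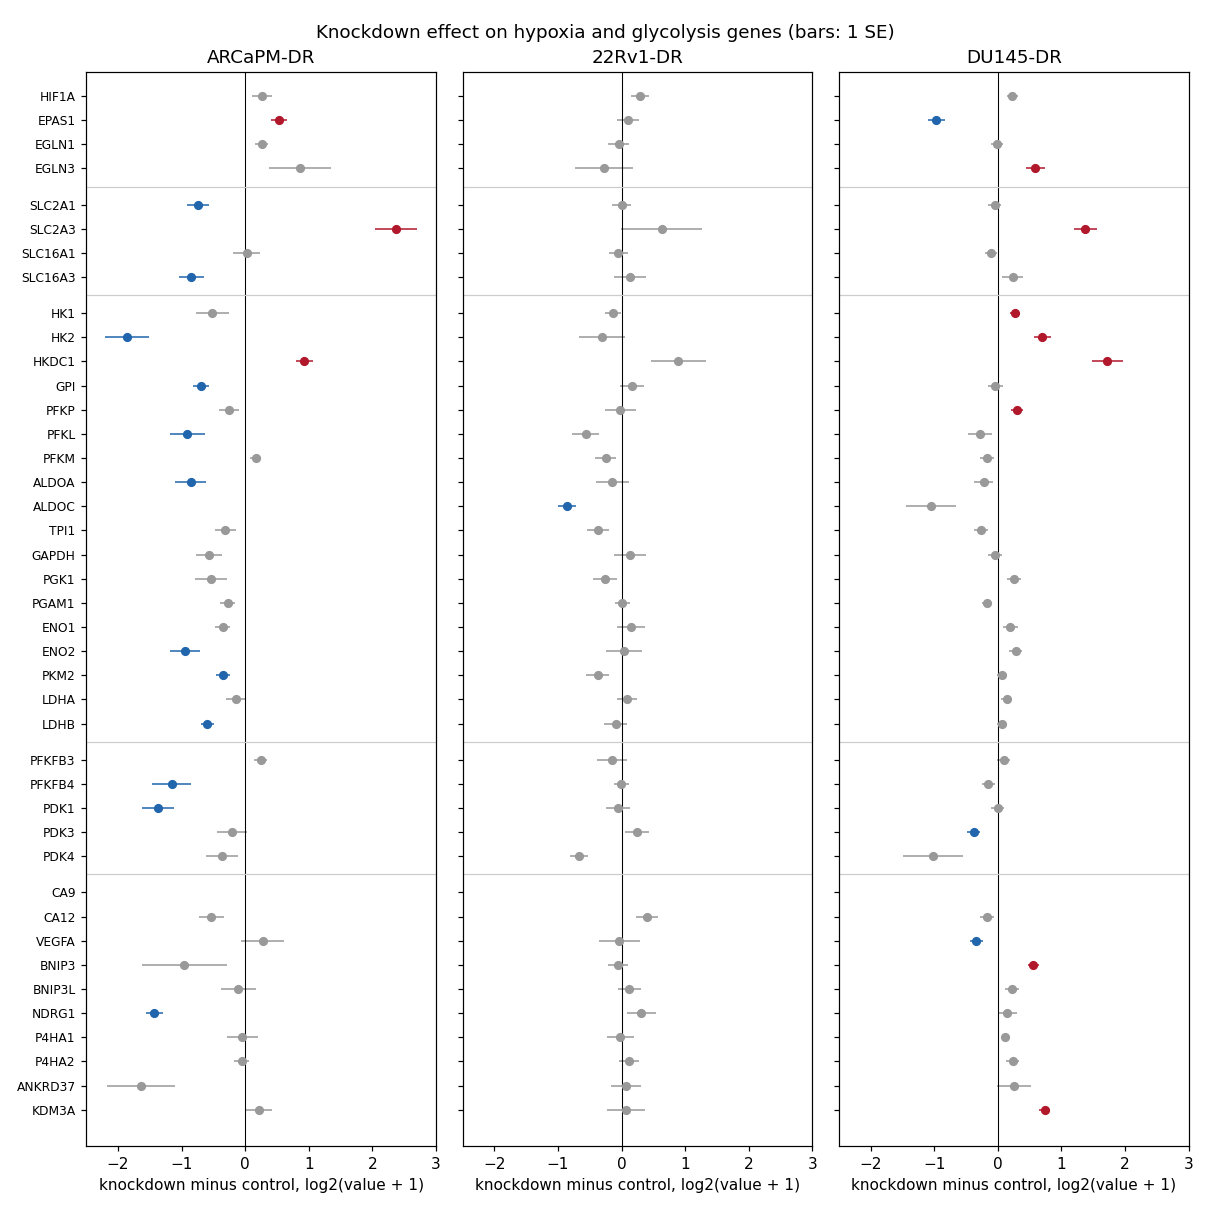
Knockdown effect on each member in ARCaPM-DR, 22Rv1-DR and DU145-DR, as the log2(value + 1) difference between the 6 libraries of both GATA2 hairpins and the 3 control libraries (x axis), by role from regulators (top) to other HIF targets (bottom). Bars are 1 standard error. Red points rose and blue points fell at an adjusted p under 0.05, and grey points did not pass. The 12 blue points of ARCaPM-DR lie mostly among the transporters, enzymes and kinases, while 22Rv1-DR has 1.

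The transporters of ARCaPM-DR moved in opposite directions. SLC2A3, which encodes the high-affinity glucose transporter GLUT3, held 26400, 36733 and 16324 normalised reads with shGATA2a and 23584, 32660 and 16407 with shGATA2b, against 3542, 8039 and 3584 in controls. All 6 knockdown libraries lay above all controls, and SLC2A3 rose 5.17-fold (log2 2.37, SE 0.33, adjusted p = 0.00126), more than any other member in any line. SLC2A1, the widespread glucose transporter GLUT1, had 441, 703 and 560 normalised reads with shGATA2a and 868, 889 and 928 with shGATA2b, against 972, 1137 and 1514 in controls. The groups do not overlap, and SLC2A1 fell by 0.75 on the log2 scale (SE 0.17, adjusted p = 0.0144). By hairpin, its log2 difference was -1.088 with shGATA2a (adjusted p = 0.00672) and -0.41 with shGATA2b (adjusted p = 0.201), which did not pass. SLC16A3, the lactate exporter MCT4, had 859 to 1595 normalised reads with knockdown and 1737 to 2175 in controls, and fell by 0.85 (SE 0.19, adjusted p = 0.0141). SLC16A1, the related carrier MCT1, differed by 0.02 (SE 0.21) and did not pass.

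The hexokinases, which trap glucose in the cell by phosphorylation, also split. HK2, the inducible isoform, had 497, 1199 and 964 normalised reads with shGATA2a and 403, 849 and 679 with shGATA2b, against 1571, 3503 and 3208 in controls. All knockdown libraries lay below all controls, and HK2 fell by 1.86 on the log2 scale (SE 0.35, adjusted p = 0.00555). HKDC1, a hexokinase-like gene encoded next to HK1, had 2169, 2763 and 2165 normalised reads with shGATA2a and 3472, 3742 and 3381 with shGATA2b, against 1257, 1878 and 1457 in controls. It was higher in every knockdown library than in any control, and rose by 0.93 (SE 0.14, adjusted p = 0.00178). HK1, the isoform present in most tissues, had a log2 difference of -0.52 (SE 0.26, adjusted p = 0.195).

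Further along the pathway, GPI, which turns glucose 6-phosphate into fructose 6-phosphate, had 3852, 5000 and 4885 normalised reads with shGATA2a and 4573, 5040 and 5343 with shGATA2b, against 7009, 7173 and 9110 in ARCaPM-DR controls. The groups are well apart, and GPI fell by 0.70 (SE 0.13, adjusted p = 0.00492). LDHB, the lactate dehydrogenase subunit that favours conversion of lactate to pyruvate, had 6973, 6156 and 7105 with shGATA2a and 6245, 6666 and 6533 with shGATA2b, against 11313, 9212 and 9622 in controls. LDHB fell by 0.60 (SE 0.10, adjusted p = 0.00325), without overlap. The other enzymes that fell were the phosphofructokinase PFKL (-0.91), the aldolase ALDOA (-0.86), the enolase ENO2 (-0.95) and the pyruvate kinase gene listed as PKM2 (-0.35). ALDOA and ENO2 overlapped between groups. LDHA, the subunit that favours lactate production, had 16016 to 24956 normalised reads with knockdown and 17573 to 25620 in controls, a log2 difference of -0.14 that did not pass. GAPDH (-0.57), PGK1 (-0.53) and ENO1 (-0.36) had lower means with knockdown but adjusted p-values of 0.0782, 0.172 and 0.0732.

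Both kinds of regulatory kinase held a member that fell. PDK1, which inactivates pyruvate dehydrogenase and so keeps pyruvate out of the mitochondrion, had 306, 378 and 536 normalised reads with shGATA2a and 286, 416 and 480 with shGATA2b, against 727, 1037 and 1381 in ARCaPM-DR controls. No knockdown library reached the lowest control, and PDK1 fell by 1.37 (SE 0.25, adjusted p = 0.00455). PFKFB4, which sets the level of fructose 2,6-bisphosphate, an activator of phosphofructokinase, had 165 to 275 normalised reads with knockdown and 286 to 855 in controls, and fell by 1.16 (SE 0.31, adjusted p = 0.0274). PFKFB3, its inducible relative, had a log2 difference of 0.25 (SE 0.10, adjusted p = 0.121), PDK3 of -0.20 and PDK4 of -0.36.

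Outside glycolysis, NDRG1, a stress-responsive gene, had 348, 396 and 381 normalised reads with shGATA2a and 231, 253 and 235 with shGATA2b, against 689, 770 and 1002 in ARCaPM-DR controls. It fell by 1.43 (SE 0.13, adjusted p = 0.000153), with the groups far apart. VEGFA, the angiogenic growth factor, had 381, 458 and 766 normalised reads with shGATA2a and 818, 678 and 1318 with shGATA2b, against 377, 463 and 1008 in controls. Its groups overlap, and its log2 difference of 0.28 (SE 0.34) did not pass. ANKRD37, a small ankyrin-repeat gene, had 2.31 to 15.0 normalised reads with knockdown and 19.8 to 31.5 in controls, without overlap, and a log2 difference of -1.64 (SE 0.54) with adjusted p = 0.0595. EdgeR's quasi-likelihood test and DESeq2 on recovered reads both called it lower, but the shallowest library held 1 read of it. The mitophagy receptor BNIP3 was low in this line, at 0.995 to 17.6 normalised reads with knockdown and 6.13 to 13.2 in controls. CA9, the carbonic anhydrase often used as a hypoxia marker, had 0 reads in all 9 ARCaPM-DR libraries, where 3 reads would be 1.92 to 11.7 normalised reads.

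Of the regulators in ARCaPM-DR, EPAS1, which encodes HIF-2 alpha, had 1270, 1253 and 1053 normalised reads with shGATA2a and 1257, 1172 and 1109 with shGATA2b, against 735, 1010 and 734 in controls. It rose by 0.53 (SE 0.13, adjusted p = 0.0196), and the groups do not overlap. HIF1A, which encodes HIF-1 alpha, and the prolyl hydroxylase genes EGLN1 and EGLN3 had log2 differences of 0.26, 0.26 and 0.86, none past the threshold. These are transcript levels, and HIF alpha subunits are controlled mainly as proteins, which were not measured. In bulk RNA, fewer cells of a type and less RNA per cell cannot be told apart. The summed level of 6 fibroblast markers was 5691 to 14933 normalised reads with knockdown and 2368 to 4777 in controls of this line, with PDGFRB at 0 in all of them and 3 or 4 of the 6 averaging under 10 in each group. Its part in these results was not tested.

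Leaving out ARCaPM-DR shGATA2b replicate 1 reduced the 12 members that fell to 7, and leaving out control replicate 3 reduced them to 5. The calls of SLC2A3, HK2, HKDC1, GPI, LDHB, PDK1 and NDRG1 held without each of the 9 libraries of the line in turn, while those of SLC2A1 and SLC16A3 held in 8 of the 9, that of ENO2 in 6, those of EPAS1 and PFKFB4 in 5, that of ALDOA in 3 and those of PFKL and PKM2 in 2.

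**Figure D2:**
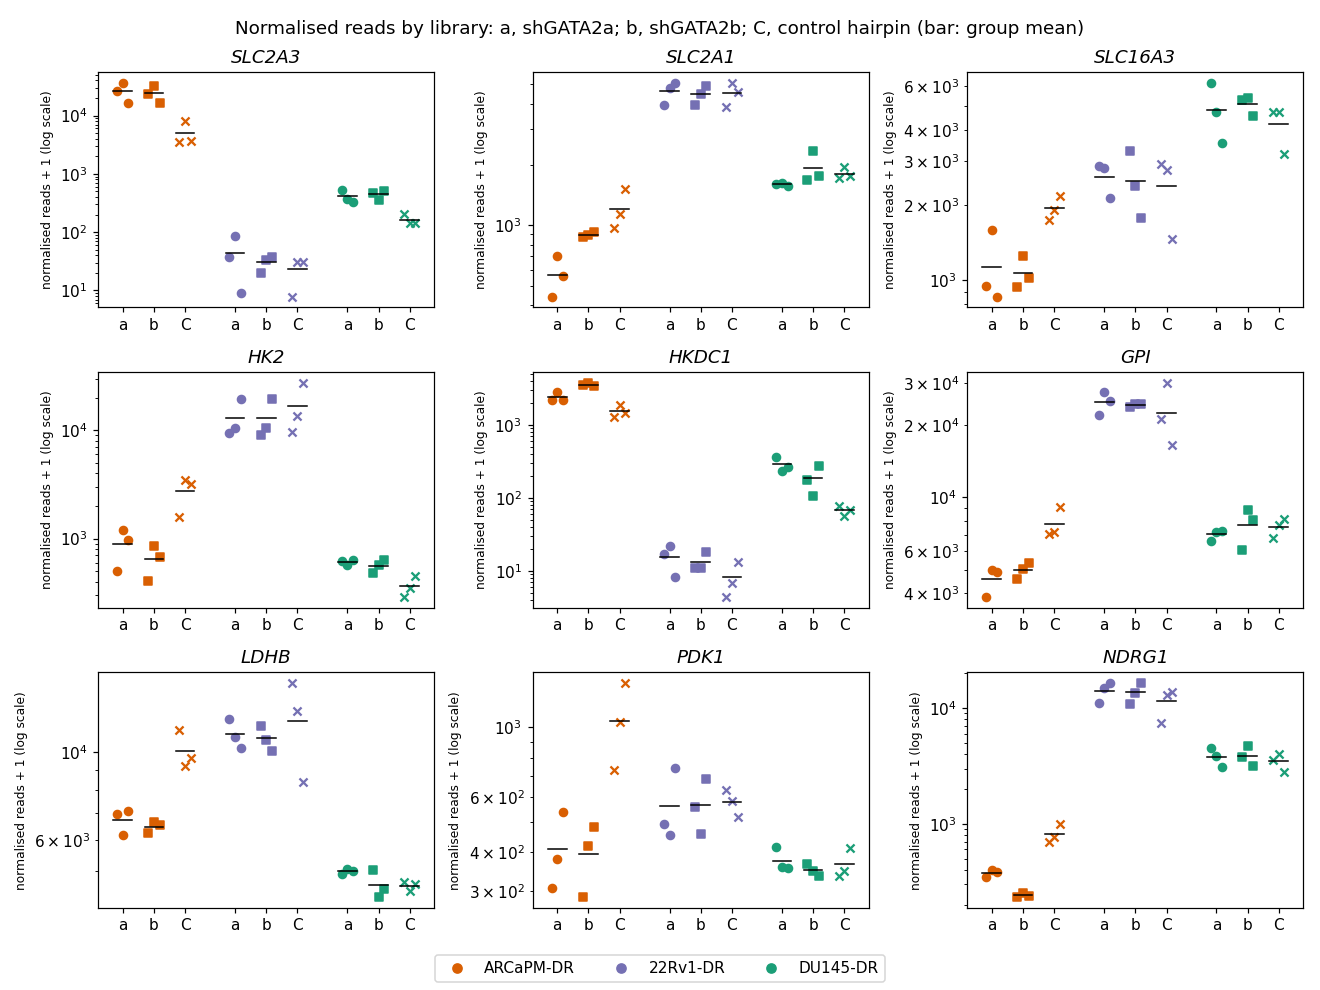
Normalised reads plus 1 (y axis, log scale) of 9 members in every library of ARCaPM-DR (orange), 22Rv1-DR (purple) and DU145-DR (green), with shGATA2a (a, circles), shGATA2b (b, squares) and the control hairpin (C, crosses); bars are group means and points run by replicate number. In ARCaPM-DR all knockdown points of SLC2A3 and HKDC1 lie above the controls and all those of the other 7 genes lie below.

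Promoters of 5 members are shown here, for genes that moved in each direction. The windows are RefSeq sequences of 300 bases on build GRCh38.p14, with 250 bases before the annotated start and 50 after it, printed 5′ to 3′ on the gene's strand. Capitals mark the letters ACGTG or GCGTG, the core that HIF is known to bind, searched on both strands, where they read CACGT or CACGC. The palindrome CACGTG counts once for each strand. Where a gene has several windows, the one with the most matches is shown. HK2 (chr2:74834920-74835219, plus strand, 6 matches), PDK1 (chr2:172555840-172556139, plus strand, 2 matches) and GPI (chr19:34364742-34365041, plus strand, 1 match) fell in ARCaPM-DR. HK2 also rose in DU145-DR. HKDC1 (chr10:69220082-69220381, plus strand, 1 match) rose in ARCaPM-DR and DU145-DR, and ALDOC (chr17:28576846-28577145, minus strand, 5 matches) is the member that fell in 22Rv1-DR.
HK2 promoter: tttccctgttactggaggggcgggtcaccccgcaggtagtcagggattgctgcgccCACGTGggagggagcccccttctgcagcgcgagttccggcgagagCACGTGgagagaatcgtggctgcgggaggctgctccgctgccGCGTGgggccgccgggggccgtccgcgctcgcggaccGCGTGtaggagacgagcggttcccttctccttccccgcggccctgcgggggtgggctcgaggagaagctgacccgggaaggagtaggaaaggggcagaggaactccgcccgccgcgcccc
PDK1 promoter: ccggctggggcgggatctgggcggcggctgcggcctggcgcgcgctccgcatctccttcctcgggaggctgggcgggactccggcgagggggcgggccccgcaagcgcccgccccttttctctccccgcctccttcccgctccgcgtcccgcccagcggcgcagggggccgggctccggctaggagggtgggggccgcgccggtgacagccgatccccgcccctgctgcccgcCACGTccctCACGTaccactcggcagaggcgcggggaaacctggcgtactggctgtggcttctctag
GPI promoter: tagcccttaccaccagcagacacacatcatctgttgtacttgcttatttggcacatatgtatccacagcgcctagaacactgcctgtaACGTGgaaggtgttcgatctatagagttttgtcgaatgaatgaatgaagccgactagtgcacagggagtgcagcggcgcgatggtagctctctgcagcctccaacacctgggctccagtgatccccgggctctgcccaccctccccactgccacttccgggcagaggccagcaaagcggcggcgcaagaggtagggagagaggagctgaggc
HKDC1 promoter: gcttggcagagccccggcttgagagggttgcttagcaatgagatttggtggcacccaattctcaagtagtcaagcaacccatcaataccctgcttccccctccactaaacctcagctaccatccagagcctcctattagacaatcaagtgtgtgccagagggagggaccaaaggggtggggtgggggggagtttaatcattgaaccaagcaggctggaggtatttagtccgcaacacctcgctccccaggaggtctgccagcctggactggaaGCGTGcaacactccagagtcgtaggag
ALDOC promoter: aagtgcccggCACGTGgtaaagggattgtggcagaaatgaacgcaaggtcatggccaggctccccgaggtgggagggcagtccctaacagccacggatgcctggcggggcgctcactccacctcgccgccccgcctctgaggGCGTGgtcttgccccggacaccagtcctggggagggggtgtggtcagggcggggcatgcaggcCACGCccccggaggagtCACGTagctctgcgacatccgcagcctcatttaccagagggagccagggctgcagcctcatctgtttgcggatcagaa

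The table of promoters held 64 windows for 36 of the 41 members. Of these windows 67.2% held at least 1 core, beside 54.7% of the 19518 windows of genes in the expression table and 48.4% of all 35116 windows. The core ACGTG was in 37.5% of the members' windows, 23.0% of the windows of genes in the table and 21.4% of all windows. The core GCGTG was in 42.2% of the members' windows, 43.0% of the windows of genes in the table and 36.5% of all windows. Windows of 1 gene can overlap. HK2 and LDHA each had 6 matches in their richest window. HK2 fell in ARCaPM-DR and rose in DU145-DR, while the knockdown effect on LDHA did not pass in any line. With the replicate block, LDHA rose with shGATA2a in DU145-DR. A match is a description of letters, not a site of binding.

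The 2 hairpins were also set side by side in ARCaPM-DR, although they share the same controls. With shGATA2a, 3 members rose and 8 fell, beside 7.2% and 5.63% of all genes. With shGATA2b, 4 rose and 8 fell, beside 7.28% and 7.21% of all genes. SLC2A3 rose by 2.42 with shGATA2a and 2.32 with shGATA2b, PDK1 differed by -1.36 and -1.39, and HK2 by -1.65 and -2.08. NDRG1 differed by -1.11 with shGATA2a and -1.75 with shGATA2b. Set against each other, shGATA2b and shGATA2a differed for 0 members by limma, beside 0.803% of all genes. At an unadjusted p under 0.05 there were 5, among them SLC2A1 (0.68 higher with shGATA2b), HKDC1 (0.59 higher) and NDRG1 (-0.64), while edgeR called 0 and DESeq2 called 3. By limma without a block and by DESeq2, 0 members differed in DU145-DR and in 22Rv1-DR, where 4 and 0 members had an unadjusted p under 0.05 by limma. With the replicate number as a block, VEGFA was higher and HKDC1 lower with shGATA2b than with shGATA2a in DU145-DR, beside 1.24% of all genes that were higher and 0.928% that were lower, and 0 members and 0% of all genes differed in 22Rv1-DR. The count of 11 members changed by shGATA2a was 5 without shGATA2a replicate 1 or control replicate 3 and 7 without shGATA2b replicate 1. The count of 12 for shGATA2b was 5 without its replicate 1 and 7 without its replicate 3 or control replicate 3.

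In DU145-DR, 7 members rose and 2 fell with shGATA2a, beside 8.28% and 7.78% of all genes (16.1% together). With shGATA2b 5 rose and 1 fell, beside 3.29% and 2.52% of all genes (5.81% together). With the replicate block, 15 members rose and 10 fell with shGATA2a, beside 19.5% and 18.5% of all genes. With shGATA2b and the block, 12 rose and 6 fell, beside 13.0% and 13.3% of all genes. The 6 calls of shGATA2b became 2 without control replicate 1, control replicate 2 or shGATA2b replicate 1, and 3 without shGATA2b replicate 3. In 22Rv1-DR neither hairpin alone gave a call among the members by limma (0 each), beside 0% of all genes for shGATA2a and 0.00727% for shGATA2b, while 4 and 3 members had an unadjusted p under 0.05, edgeR called 0 and DESeq2 called 2 and 1. With the replicate block, ALDOC and PDK4 fell with shGATA2a, beside 0.4% of all genes that fell and 0.204% that rose. ALDOC alone fell with shGATA2b, beside 0.342% that fell and 0.138% that rose, and these block calls were lost without the 58 genes that hold values other than whole reads.

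In DU145-DR, knockdown raised 8 of the 40 members tested and lowered 3. These are 20% and 7.5% of the members, beside 8.72% of all 13362 genes tested that rose and 7.98% that fell. The median log2 difference was 0.08 over the members. Of 18 glycolytic enzymes 4 rose and 0 fell, and of 9 other HIF targets 2 rose and 1 fell. The enzymes that rose were HK1, HK2 and HKDC1, which act at the entry of glucose into the pathway, and the phosphofructokinase PFKP, which acts at its committed step.

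SLC2A3 in DU145-DR had 533, 370 and 322 normalised reads with shGATA2a and 469, 350 and 509 with shGATA2b, against 207, 143 and 141 in controls, and rose 2.59-fold (log2 1.37, SE 0.18, adjusted p = 0.00067). HKDC1 had 357, 235 and 265 with shGATA2a and 175, 105 and 274 with shGATA2b, against 77.0, 55.6 and 67.5 in controls, and rose 3.29-fold (log2 1.72, SE 0.24, adjusted p = 0.001). For both genes every knockdown library was above every control. HK2 had 623, 570 and 631 normalised reads with shGATA2a and 482, 565 and 639 with shGATA2b, against 289, 352 and 452 in controls. It rose by 0.70 (SE 0.13, adjusted p = 0.00499), without overlap. HK1 and PFKP rose by 0.27 and 0.30, and each of these calls held in 2 of the 9 fits that left out a library.

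Among the other targets, KDM3A, a histone demethylase gene, had 1305, 1225 and 1244 normalised reads with shGATA2a and 1221, 1100 and 1111 with shGATA2b, against 688, 702 and 777 in DU145-DR controls. The groups are far apart, and KDM3A rose by 0.73 (SE 0.08, adjusted p = 0.000238). BNIP3 had 2292, 2106 and 1989 with shGATA2a and 1720, 1852 and 1715 with shGATA2b, against 1214, 1316 and 1417 in controls, and rose by 0.56 (SE 0.08, adjusted p = 0.00131). EGLN3, a hydroxylase gene that HIF itself induces, had 82.5 to 106 normalised reads with knockdown and 56.2 to 69.8 in controls, and rose by 0.59 (SE 0.14, adjusted p = 0.0149). VEGFA fell by 0.34 (SE 0.10, adjusted p = 0.0377), with 1394 to 2045 normalised reads with knockdown overlapping 1823 to 2422 in controls. Its mean was 1500 with shGATA2a, 1894 with shGATA2b and 2148 in controls. By hairpin, its log2 difference was -0.51 with shGATA2a by limma (adjusted p = 0.0133). With the replicate block, VEGFA fell with shGATA2a but did not pass with shGATA2b. PDK3, a pyruvate dehydrogenase kinase, fell by 0.38 (adjusted p = 0.0284). The call of VEGFA held in 4 of the 9 fits that left out a library, and that of PDK3 in 5 of 9.

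EPAS1 had 1841, 2345 and 2502 normalised reads with shGATA2a and 2447, 3726 and 2374 with shGATA2b, against 4847, 4886 and 4851 in DU145-DR controls. Every knockdown library was below the controls, and EPAS1 fell 1.96-fold (log2 -0.97, SE 0.14, adjusted p = 0.00104). HIF1A had 2647 to 3147 normalised reads with knockdown and 2232 to 2718 in controls, with an adjusted p of 0.105. SLC2A1, PDK1 and NDRG1, which fell in ARCaPM-DR, had log2 differences of -0.05, -0.0045 and 0.14 in DU145-DR. Summed basal prostate markers were 3747 to 5145 normalised reads with knockdown and 2246 to 2534 in controls of this line, with KRT5 at 0 throughout and 3 of the 5 averaging under 10. Summed endothelial markers were 10.9 to 36.8 normalised reads with knockdown and 5.19 to 8.56 in controls, and summed fibroblast markers 97.7 to 179 with knockdown and 170 to 219 in controls. The part of these markers in the results was not tested.

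With the replicate number as a block, 15 members of DU145-DR rose and 9 fell, beside 19.6% and 19.2% of all genes. The block added HIF1A, SLC16A3, PGK1, ENO1, ENO2, BNIP3L and P4HA2 to those that rose and ALDOA, ALDOC, PFKL, PGAM1, PDK4 and TPI1 to those that fell. In 1 fit of all 27 libraries, HKDC1 alone rose and EPAS1 alone fell. Without DU145-DR control replicate 2 the members that rose numbered 5. Those that fell numbered 1 without control replicate 1 or shGATA2b replicate 3 and 5 without shGATA2b replicate 1.

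In 22Rv1-DR, 0 of 40 members rose and 1 fell, beside 0.124% of all 13757 genes that rose and 0.276% that fell, 0.4% together. The median log2 difference was -0.01 over the members and -0.02 over all genes. At an unadjusted p under 0.05, 1 member was higher and 3 were lower by limma, and edgeR and DESeq2 also called 0 members higher. ALDOC, the aldolase of brain and a known hypoxia-responsive gene, had 2393, 3084 and 3041 normalised reads with shGATA2a and 2806, 2669 and 2964 with shGATA2b, against 4416, 5750 and 5192 in controls. The groups do not overlap, and ALDOC fell by 0.85 on the log2 scale (SE 0.14, adjusted p = 0.0325). PDK4, a kinase of pyruvate dehydrogenase induced in fasting, had 6038, 5191 and 6673 with shGATA2a and 7169, 5742 and 6806 with shGATA2b, against 10237, 9189 and 10492 in controls. Its groups do not overlap either, but its log2 difference of -0.68 (SE 0.14) had an adjusted p of 0.0917. Non-overlapping groups below the controls were found for these 2 members, 5% of those tested, and for 4.04% of all genes.

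The replicate block in 22Rv1-DR called ALDOC (adjusted p = 0.0102) and also PDK4 (0.012), as did DESeq2. The call of ALDOC was lost without any 1 of the 9 libraries, control replicate 3 and either hairpin's replicate 3 included, with adjusted p-values up to 0.152, and in 1 fit of all libraries, at 0.273. It was also lost without the 58 genes that hold values other than whole reads, and with no mean-variance trend.

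Some members of each line differed between replicate numbers in the same way in all 3 groups of the line. In ARCaPM-DR, replicate 2 was the highest in all 3 groups for 15 of the 41 members, and replicate 1 was the lowest for 14. In DU145-DR, replicate 3 was the lowest for 13 and the highest for 2. The share over all genes was not counted in any line. In 22Rv1-DR, replicate 3 was the highest of its group in all 3 groups for 15 of the 41 members and the lowest for 3. There, replicate 1 was the highest for 3 and the lowest for 10, and replicate 2 was the highest for 3 and the lowest for 2. The hairpin libraries of replicate 3 in 22Rv1-DR are the close pair described above, at 1.65 per degree of freedom. For replicate 3 the 3 groups may therefore not be 3 separate observations. The genes shown here were chosen after their values were seen. HK2 had 9371, 10454 and 19579 normalised reads with shGATA2a, 8966, 10519 and 19530 with shGATA2b, and 9581, 13513 and 27446 in controls, in the order of replicates 1, 2 and 3. VEGFA had 18491, 20236 and 33481 with shGATA2a, 19303, 19846 and 32772 with shGATA2b, and 15296, 20178 and 43788 in controls. Replicate 3 was the highest of its group for both genes in all 3 groups, and also for KDM3A, P4HA1, PFKFB3 and ENO2. P4HA1, a subunit of collagen prolyl hydroxylase, had 24673 and 24959 normalised reads in replicate 3 of shGATA2a and shGATA2b and 21031 in that of the controls. The labels do not say what the replicate numbers stand for.

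**Figure D3:**
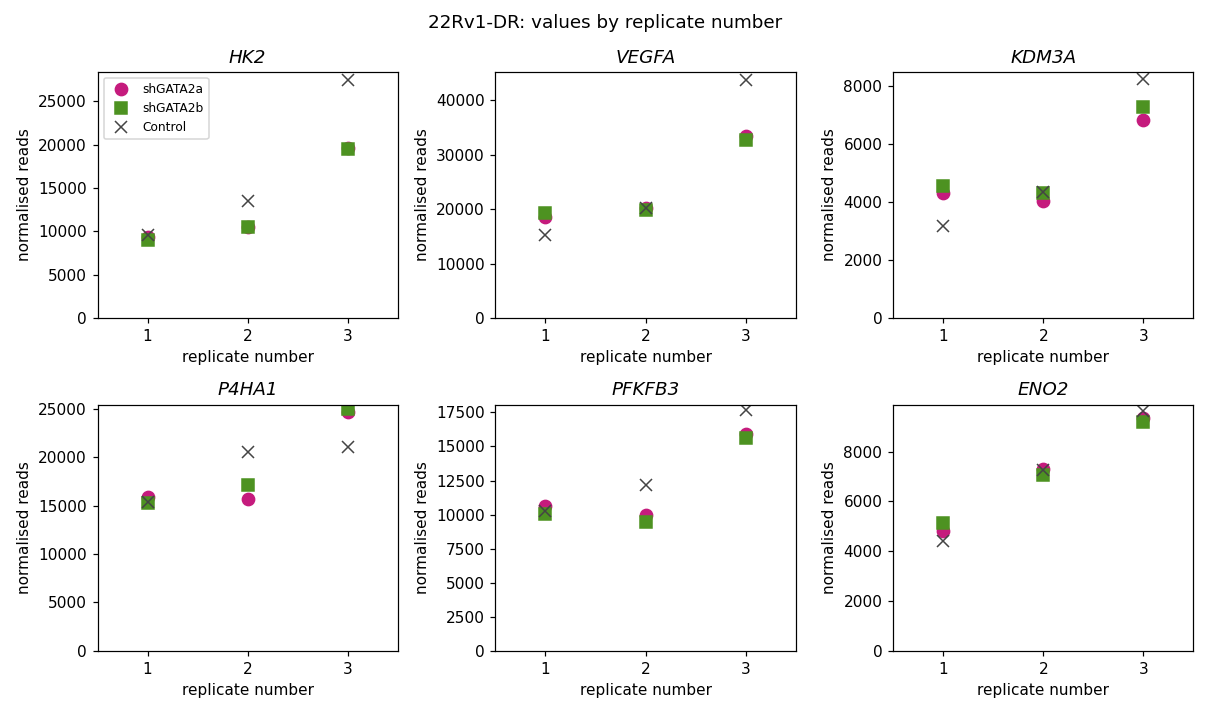
Normalised reads (y axis) of 6 of the 15 members of 22Rv1-DR whose replicate 3 was highest in all groups, by replicate number (x axis), with shGATA2a as circles, shGATA2b as squares and the control hairpin as crosses. HK2 of replicate 3 lies at 19579 and 19530 with the hairpins and 27446 in the control.

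A joint fit of all 27 libraries asked whether the knockdown effect differed between lines. Between ARCaPM-DR and DU145-DR it differed for 10 of 40 members, 1 upward and 9 downward in ARCaPM-DR, beside 3.71% and 3.41% of all 15295 genes, 7.13% together. EPAS1 was 1.503 higher in effect (SE 0.22, adjusted p = 0.000121), since it rose in ARCaPM-DR, a call that held in 5 of the 9 fits without a library, and fell in DU145-DR. HK2 was 2.56 lower in effect in ARCaPM-DR (log2 -2.56, SE 0.47, adjusted p = 0.00112). In the fits of each line HK2 fell in ARCaPM-DR and rose in DU145-DR. That rise in DU145-DR was not called by limma in 1 fit of all libraries (adjusted p = 0.286). NDRG1 (-1.58), PDK1 (-1.37), ANKRD37 (-1.89), ENO2 (-1.23), SLC16A3 (-1.08), PFKFB4 (-1.003), SLC2A1 (-0.70) and LDHB (-0.66) also had a lower effect in ARCaPM-DR. For SLC2A3 and HKDC1, which rose in both lines, the differences of 0.9996 (SE 0.69) and -0.79 (SE 0.44) did not pass.

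Between ARCaPM-DR and 22Rv1-DR the effect differed for 6 members, beside 2.19% of all genes upward and 1.2% downward, 3.39% together. All 6 were lower in ARCaPM-DR: NDRG1 (-1.74), PDK1 (-1.32), PFKFB4 (-1.15), the carbonic anhydrase CA12 (-0.94), GPI (-0.86) and SLC2A1 (-0.75). Between 22Rv1-DR and DU145-DR it differed for EPAS1 alone (1.075, SE 0.22, adjusted p = 0.0161), beside 0.464% of all genes upward and 0.621% downward. With the replicate block, EPAS1 and PDK3 had a higher effect in 22Rv1-DR than in DU145-DR and HK1, HK2, KDM3A and PGK1 a lower one, beside 4.65% and 5.62% of all genes. These 3 comparisons share lines. The count of 10 between ARCaPM-DR and DU145-DR was 4 without DU145-DR control replicate 2 or 3, 5 without DU145-DR control replicate 1 or ARCaPM-DR control replicate 2 or 3, and 6 without replicate 1 of shGATA2a in either line. The count of 6 was 3 without ARCaPM-DR control replicate 2 or 3, and the call of EPAS1 against 22Rv1-DR was lost without DU145-DR control replicate 1 or 2. EPAS1, HK2, PDK1 and NDRG1 held in all 18 such fits for ARCaPM-DR against DU145-DR.

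**Figure D4:**
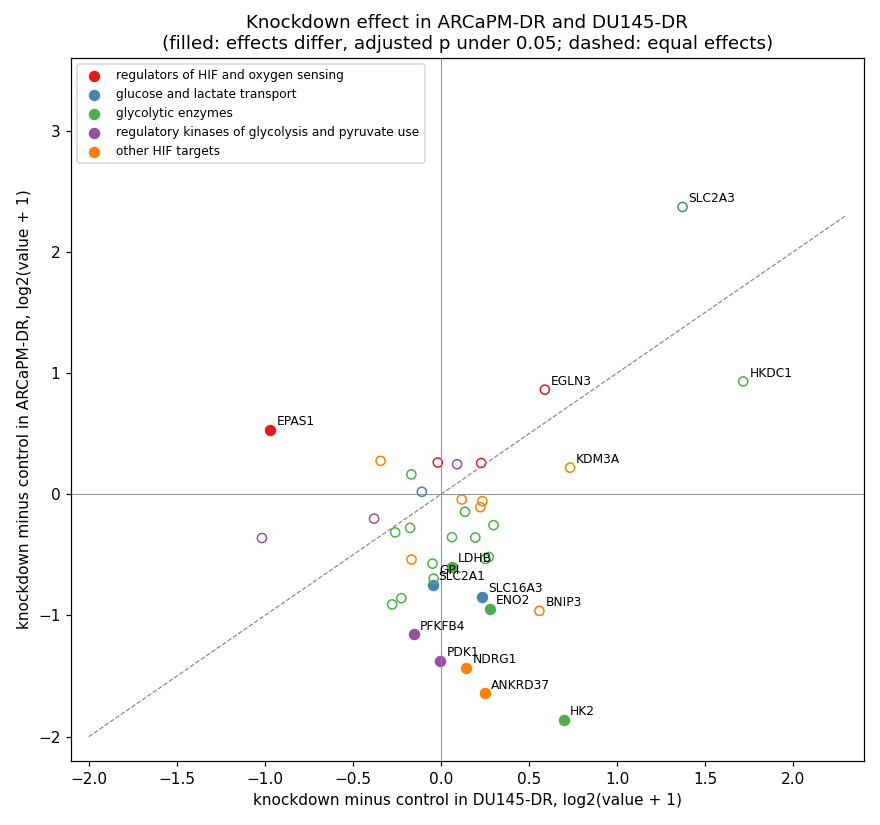
Knockdown effect on each member in ARCaPM-DR (y axis) and in DU145-DR (x axis), as log2(value + 1) differences, coloured by role. Filled points are the 10 members whose effect differed between the lines at an adjusted p under 0.05, and the dashed line marks equal effects. EPAS1 lies at the upper left and HK2 at the lower right, while SLC2A3 and HKDC1 lie to the upper right.

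The lines also differed in the controls, before any knockdown of GATA2. In 22Rv1-DR against DU145-DR, 30 of 40 members were higher and 8 lower, 75% and 20%, beside 36.7% and 33.7% of all genes, 70.5% together. The median difference was 1.62 over the members and 0.05 over all genes. In ARCaPM-DR against 22Rv1-DR, 5 were higher and 30 lower, 12.5% and 75%, beside 31.9% and 38.3% of all genes, 70.3% together. The glycolytic enzymes were lower for 15 of 18 and the other HIF targets for 8 of 9. In ARCaPM-DR against DU145-DR, 17 were higher and 14 lower, 42.5% and 35%, beside 28.8% and 31.1% of all genes, 59.9% together. All 5 regulatory kinases were higher in ARCaPM-DR than in DU145-DR. In 22Rv1-DR all 5 kinases and all 9 tested other HIF targets were higher than in DU145-DR.

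HK2 controls illustrate the range, with 1571 to 3503 normalised reads in ARCaPM-DR, 9581 to 27446 in 22Rv1-DR and 289 to 452 in DU145-DR. VEGFA had 377 to 1008 in ARCaPM-DR controls, 15296 to 43788 in 22Rv1-DR and 1823 to 2422 in DU145-DR. SLC2A3 ran the other way, with 3542 to 8039 normalised reads in ARCaPM-DR controls, 6.88 to 29.8 in 22Rv1-DR and 141 to 207 in DU145-DR. EPAS1 had 734 to 1010 in ARCaPM-DR controls, 767 to 899 in 22Rv1-DR and 4847 to 4886 in DU145-DR. EPAS1 therefore did not differ beyond its spread between ARCaPM-DR and 22Rv1-DR (log2 -0.03, SE 0.18), and both were below DU145-DR. PDK4 spanned the widest range of the kinases, with 432 to 727 normalised reads in ARCaPM-DR controls, 9189 to 10492 in 22Rv1-DR and 11.2 to 22.8 in DU145-DR. BNIP3 had 6.13 to 13.2 in ARCaPM-DR controls, 7650 to 10111 in 22Rv1-DR and 1214 to 1417 in DU145-DR. CA9 held at most 1 read in any library of any line.

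**Figure D5:**
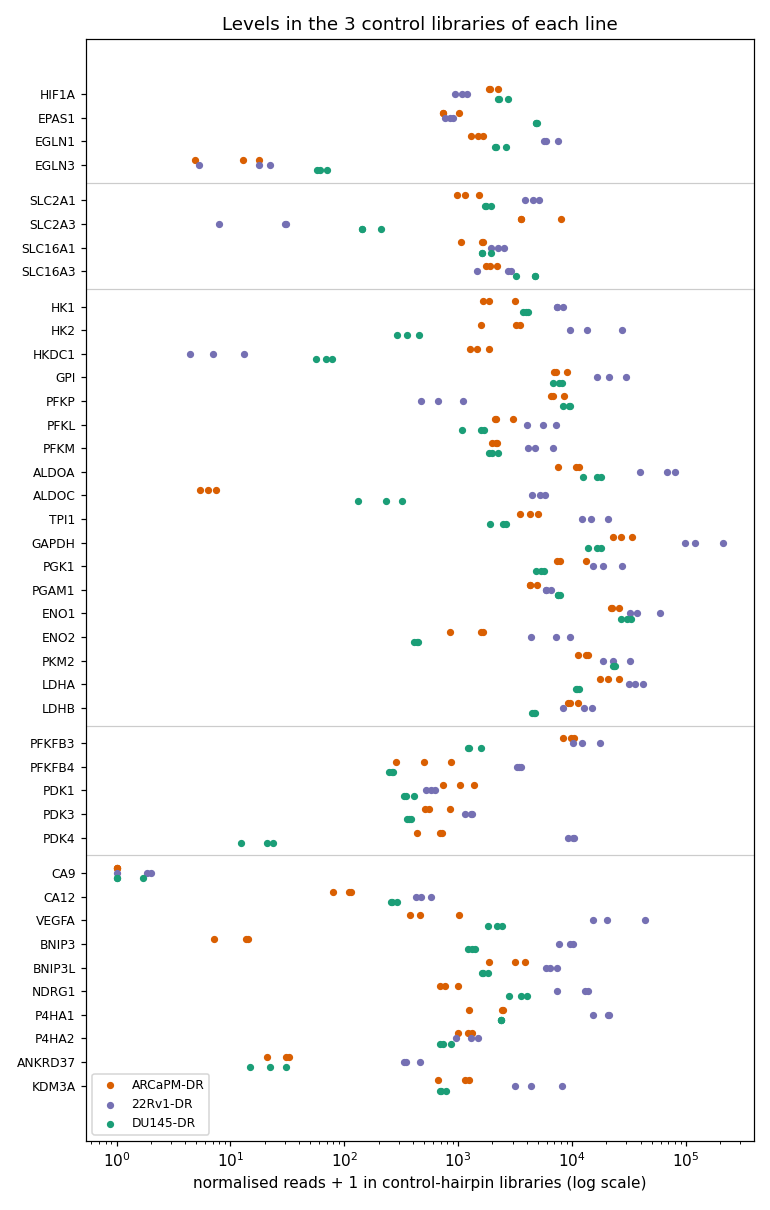
Normalised reads plus 1 (x axis, log scale) of each member in the 3 control libraries of ARCaPM-DR (orange), 22Rv1-DR (purple) and DU145-DR (green), by role. Most purple points lie to the right. Exceptions include SLC2A3 and HKDC1, at 6.88 to 29.8 and 3.44 to 12.2 normalised reads. PFKP and HIF1A of 22Rv1-DR also lie left of both other lines. BNIP3 of ARCaPM-DR lies far left at 6.13 to 13.2.

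Related genes, among them enzyme isoforms, glucose transporters and genes of HIF alpha subunits, were compared within each library as a log2 ratio. This measure does not depend on scaling, and it was used in 43 exact two-sided permutation tests of 6 knockdown against 3 control libraries. None passed after Benjamini-Hochberg adjustment. The smallest p the design allows, 0.0119, gave 0.0569, a value that depends on how many of the 43 ratios reached that smallest p. SLC2A3 over SLC2A1 in ARCaPM-DR averaged 5.10 ± 0.648 with knockdown (SD, n = 6) and 1.98 ± 0.795 in controls (SD, n = 3), and in DU145-DR -2.06 ± 0.418 with knockdown and -3.48 ± 0.379 in controls. HK2 over HK1 in ARCaPM-DR averaged -1.06 ± 0.443 with knockdown and 0.29 ± 0.450 in controls. EPAS1 over HIF1A in DU145-DR averaged -0.18 ± 0.338 with knockdown and 1.01 ± 0.156 in controls. In each of these 4 cases the ratios of the groups did not overlap. Further ratios without overlap included PDK1 over PDK3 and PFKFB4 over PFKFB3 in ARCaPM-DR and ALDOC over ALDOA in 22Rv1-DR. These are examples and not the full list, and the share of non-overlap among ratios of other genes was not counted.

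Other genes of the same pathways give the setting. Of 35 further HIF targets tested in ARCaPM-DR, 6 rose and 8 fell, 17.1% and 22.9% beside 9.86% and 8.62% of all genes, among them the glycogen synthase gene GYS1 (-1.16), ZNF395 (-0.88) and TMEM158 (-1.79). In DU145-DR 5 of 36 rose and 4 fell, 13.9% and 11.1% beside 8.72% and 7.98% of all genes, with WSB1 (0.86), VLDLR (0.93) and the phosphoglucomutase PGM1 (0.73) the most significant. Of 25 further genes of glycolysis and pyruvate use in ARCaPM-DR 3 rose and 5 fell (12% and 20%), with DLD, a subunit of pyruvate dehydrogenase, at -1.39 and BSG, the chaperone of the lactate carriers, at -0.88, and PGAM2 at 1.42. In DU145-DR 2 of 25 rose and 4 fell, 8% and 16%. For these genes and for the lists that follow, the shares of all genes that rose and fell are again 9.86% and 8.62% in ARCaPM-DR. In DU145-DR they are 8.72% and 7.98%.

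Of 8 genes of the pentose phosphate pathway tested in ARCaPM-DR, 3 fell, namely RPIA (-1.504), RPE (-0.67) and H6PD (-0.74), 37.5% of them, and none rose (0). In DU145-DR 2 of 9 rose (PGD and TALDO1) and 2 fell, 22.2% each. Of 22 citric acid cycle genes in ARCaPM-DR 3 rose (13.6%), among them the malic enzyme gene ME1 (1.04) and IDH3A (0.63), and 1 fell (4.55%), SDHA (-0.48), while in DU145-DR 1 of 23 rose (4.35%). HSP90AA1, a chaperone that binds HIF-1 alpha, rose in ARCaPM-DR (1.06) and DU145-DR (0.46) and was the one gene of the list of HIF partners that rose in either line. None of these 5 lists had a gene past the threshold in 22Rv1-DR by limma. There, 3 further HIF targets, 0 HIF partners, 2 further genes of glycolysis and pyruvate use, 1 gene of the pentose phosphate pathway and 3 of the citric acid cycle had an unadjusted p under 0.05.

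Some members share sequence or position with other genes, and their counts are uncertain for that reason. By name, GENCODE lists 62 pseudogenes of GAPDH, 39 of BNIP3, 13 of PGAM1, 6 of LDHA, 5 of PKM, 4 each of ENO1 and TPI1, 3 each of SLC2A3 and LDHB and 2 of ALDOA. How reads with several matches were counted and whether counting used the strand are not stated in the labels, so reads of HIF1A, PFKM, ANKRD37, SLC16A3, TPI1 and P4HA2 cannot be told apart from those of genes that overlap them on the opposite strand, such as SENP1 for PFKM and UFSP2 for ANKRD37.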

How the data were processed

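The deposited table, 1 for the whole study, lists 23228 symbols in 27 libraries. Per the submitters' processing notes, TopHat2 2.0.9, Cufflinks 1.3.0 and the hg19 (GRCh37) build were used, while counting, scaling and strand use are not stated. From the values, the deposited signal is a read count divided by 1 factor per library: 99.954% of 433407 values above 0 lay within 0.005 of a whole read. The other 199 values lie in 58 genes, none of them (0) among the 41. No value was divided by gene length, so levels are not compared between genes.

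Each line was fitted in R 4.3.3 by limma 3.58.1, using log2(value + 1) and a mean-variance trend, over genes reaching 10 in 3 or more libraries. That scale understates changes of low genes. Knockdown is the mean of both hairpins. Adjusted p-values are Benjamini-Hochberg over all genes tested, with a threshold of 0.05, and "rose" and "fell" mean past it. EdgeR 4.0.16 and DESeq2 1.42.0 on recovered reads were alternatives, and edgeR called 2360 (DU145-DR), 57 (22Rv1-DR) and 2482 (ARCaPM-DR) genes. The scripts were tested on simulated data. A 0 in a library allows up to 3 reads, counting error only.

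The members and lists were chosen with earlier results of these data known. One marker gene is not reported here. All members and up to 3 genes of each further list per line, those with the smallest adjusted p, are named. Same-numbered replicates deviated together in DU145-DR and 22Rv1-DR (lowest correlation 0.275 and 0.211), so the block is given beside the results of these lines. In ARCaPM-DR the lowest correlation was 0.0559. Its median correlation was still the highest of the lines, at 0.583, beside 0.393 in DU145-DR and 0.409 in 22Rv1-DR. For ARCaPM-DR the block is given with its first counts and in the closing section. The pairing comes from the data, not the labels. Promoters are from RefSeq and gene overlaps from GENCODE, both on a newer build than that of the table.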

Additional observations from a re-analysis of the deposited data

Results flagged for a closer look

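The results listed here are those where a test of the difference itself, in the joint limma fit of 27 libraries, found that the knockdown effect of a member differed between 2 lines. Values are differences of log2 effects with their standard errors and Benjamini-Hochberg adjusted p-values. Groups of 3 are too small for a test of single outlying libraries.

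For ARCaPM-DR against DU145-DR, EPAS1 differed by 1.503 (SE 0.22, adjusted p = 0.000121) and HK2 by -2.56 (SE 0.47, adjusted p = 0.00112). Both moved in opposite directions in the 2 lines when each line was fitted alone. The rise of HK2 in DU145-DR was not called in 1 fit of all libraries. NDRG1 differed by -1.58 (adjusted p = 0.000482), PDK1 by -1.37 (0.0034) and ENO2 by -1.225 (0.0274). ANKRD37 differed by -1.89 (0.036), LDHB by -0.66 (0.028), PFKFB4 by -1.003 (0.035), SLC16A3 by -1.08 (0.0413) and SLC2A1 by -0.70 (0.0386). Of 18 fits that left out a library, the call of SLC16A3 held in 4, SLC2A1 in 7 and PFKFB4 in 8. That of ANKRD37 held in 11, ENO2 in 12 and LDHB in 14, and the calls of EPAS1, HK2, NDRG1 and PDK1 in all 18. ANKRD37 is low in both lines, at 2.31 to 15.0 normalised reads with knockdown and 19.8 to 31.5 in controls of ARCaPM-DR.

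For ARCaPM-DR against 22Rv1-DR, NDRG1 differed by -1.74 (adjusted p = 0.00049), PDK1 by -1.32 (0.00799), PFKFB4 by -1.15 (0.0252), CA12 by -0.94 (0.0201), GPI by -0.86 (0.0284) and SLC2A1 by -0.75 (0.0408). Of 18 fits that left out a library, the call of SLC2A1 held in 5, GPI in 13, PFKFB4 in 15, CA12 in 16, and NDRG1 and PDK1 in all 18. For 22Rv1-DR against DU145-DR, EPAS1 differed by 1.075 (SE 0.22, adjusted p = 0.0161).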

How the results depend on the processing

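No value past the threshold under either setting changed sign. Of 5971 single-gene values recomputed, 177 changed sign, with 0 of them called with or without the alternative, while 5633 kept their side of the threshold, 174 lost the call and 164 gained it. Pseudocount 0.1, no filter, a filter of 50, median-of-ratios and TMM scaling moved no count by over 1.5 times, and neither did edgeR. With the replicate block, the members that rose and fell numbered 15 and 9 in DU145-DR. In 22Rv1-DR they numbered 0 and 2, and in ARCaPM-DR 7 and 22. Those of ARCaPM-DR included HK1, GAPDH, PGK1, ENO1, TPI1 and ANKRD37 among the ones that fell. In ARCaPM-DR 7 of 9 libraries correlated best with their own number, in the other lines 9 of 9. The block also gave 25 and 18 members changed by shGATA2a and shGATA2b in DU145-DR, 2 and 1 in 22Rv1-DR, and 25 and 28 in ARCaPM-DR. Between hairpins, 2 members differed in DU145-DR and 9 in ARCaPM-DR. Effects differed for 22 members between ARCaPM-DR and DU145-DR, 19 between ARCaPM-DR and 22Rv1-DR, and 6 between 22Rv1-DR and DU145-DR. For the 25, 28 and 9 of ARCaPM-DR and for the 22 and 19, shares over all genes are not given here. Those counts are therefore not read as results about the members. Over all genes it gave 5184 changed genes (DU145-DR), 166 (22Rv1-DR) and 5885 (ARCaPM-DR), where limma without the block gave 2231, 55 and 2418. Without the 58 genes, an alternative chosen after seeing the data, the block gave 5149, 26 and 5842, with the same member counts except 0 for the single hairpins of 22Rv1-DR, and without it 22Rv1-DR had 1 gene and 0 members.

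In 1 fit of all libraries, 1 member rose and 1 fell in DU145-DR, 0 fell in 22Rv1-DR, 2 and 1 were changed by shGATA2a and shGATA2b in DU145-DR, 1 differed between hairpins in ARCaPM-DR, and 650 and 224 genes changed in DU145-DR and 22Rv1-DR. With no trend, 0 members fell and 3 genes changed in 22Rv1-DR, and 2 members were changed by shGATA2b in DU145-DR. DESeq2 gave 2 members that fell and 185 genes in 22Rv1-DR, 2 and 1 changed by the single hairpins there, 3 that differed between hairpins in ARCaPM-DR and 2 whose effect differed between 22Rv1-DR and DU145-DR. The cause was not tested.

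Leaving out each library in turn gave 5 to 8 members that rose and 1 to 5 that fell in DU145-DR, 0 and 0 in 22Rv1-DR, and 2 to 3 and 5 to 15 in ARCaPM-DR. Members changed by shGATA2a ranged over 6 to 10 in DU145-DR and 5 to 15 in ARCaPM-DR, and by shGATA2b over 2 to 8 and 5 to 15. Effects differed for 4 to 11, 3 to 8 and 0 to 1 members in the order above, and controls for 27 to 31, 34 to 35 and 37 to 38. All genes changed ranged over 857 to 2440 (DU145-DR), 0 to 37 (22Rv1-DR) and 1179 to 3545 (ARCaPM-DR). Depth limits CA9, EGLN3, ANKRD37 and HKDC1 in the lines where they lie near the value of a few reads, and 1 read of ARCaPM-DR shGATA2a replicate 3 is worth 3.89 normalised reads.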
